A study of Homo sapiens with 12 samples.

Results

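Y RNA, vault RNA, 7SL, 7SK and spliceosomal snRNA are short non-coding RNAs that work inside ribonucleoproteins, and they were followed here in small RNA libraries of extracellular vesicles (EV). A table row was taken as a member when its biotype was misc_RNA, snRNA or vaultRNA and its counts summed to at least 12 over the 12 libraries. This gave 193 members of 39666 rows of GENCODE genes, and 507 other rows of the 3 biotypes stayed under the threshold. The last rows outside were RN7SKP237, RN7SL504P and RN7SKP104, with 11.6 to 11.7 summed counts, and the first inside were RN7SKP108, RN7SL370P and RN7SKP94, with 12.1 to 12.3. Members were selected on this summed count, and the set was proposed with earlier results of these data known. By name and by the Rfam family of the rows without a symbol, the members were 44 Y RNA, 69 7SL, 43 7SK, 32 snRNA and 4 vault RNA rows, with 1 row of telomerase RNA. The symbol starts alone placed 43 Y RNA, 68 7SL, 42 7SK, 28 snRNA and 3 vault RNA rows and left 9 rows without a family.

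All EV came from 1 human line, iPS(IMR90)-4, an established induced pluripotent stem cell line derived from lung fibroblasts, at 4 stages of differentiation to cardiomyocytes. The groups were EV of undifferentiated cells at day 0 (hiPSC-EV), of cardiac progenitors at day 6 (CPC-EV), of immature cardiomyocytes at day 15 (CMi-EV) and of mature cardiomyocytes at day 35 (CMm-EV), with 3 libraries each from independent cultures. The medium was conditioned for 24 h, 72 h, 48 h and 48 h in that order, and by the study's methods each stage had its own culture medium and the cells were moved from monolayers to suspension aggregates after the CPC-EV stage. Stage, medium, culture format and conditioning time therefore cannot be told apart. In such bulk EV libraries, more EV carrying an RNA and more of that RNA per EV cannot be told apart either. All groups share 1 line, so the replicates measure the spread between cultures of that line.

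Gencode counts, the reads assigned to annotated genes, ranged from 131423 to 1908539 per library, and library totals ranged from 1514392 to 9594408. A count of 3 thus corresponded to between 1.57 and 22.8 CPM, the count scaled to a common total of gencode counts. The summed level of 12 pluripotency markers was 600 to 899 CPM in hiPSC-EV, 465 to 667 CPM for CPC-EV, 13.7 to 218 CPM for the CMi-EV libraries and 3.40 to 55.8 CPM in CMm-EV. Single markers went both ways between hiPSC-EV and CPC-EV. Counts went from 397 to 58 for POU5F1 and from 270 to 1 for L1TD1, but from 524 to 935 for LIN28A and from 146 to 263 for SALL4. Endoderm markers, of which 3 of 11 were in the table, reached 152 CPM in 1 CPC-EV library and 214 CPM in 1 CMi-EV library, and their part in the results was not tested. The summed level of cardiomyocyte markers, of which 13 of 14 were in the table, was 11.4 to 87.8 CPM in hiPSC-EV, 1271 to 1967 CPM for CPC-EV, 12536 to 14153 CPM for the CMi-EV libraries and 7489 to 20583 CPM in CMm-EV. The red blood cell and serum list had no row in the table. Replicates of 1 group differed by far more than counting noise: chi-square values divided by their degrees of freedom were 14.4 to 44.7.

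Y RNAs are RNA polymerase III transcripts that fold into a stem and loop, bind the Ro60 and La proteins, and take part in RNA quality control and DNA replication. They are abundant in EV of many cell types, mostly as fragments. Vault RNAs are named after the vault particle. 7SL is the scaffold of the signal recognition particle, and 7SK holds the elongation kinase P-TEFb in an inactive complex. U1, U2, U4, U5 and U6 build the major spliceosome, U11, U12, U4atac and U6atac serve the minor spliceosome, and U7 guides the processing of histone mRNA ends. The table gives 1 count per row, so whole RNAs and fragments of them were not separated.

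RNY1 and RNY4, the Y RNA genes with the most counts, are shown first because the main result turns on the balance between them. Capitals mark runs of at least 6 bases found in both, wherever they stand, among them 1 run at the 5′ end and 1 near the 3′ end, where the stem forms; sequences are 5′ to 3′ as DNA letters from GENCODE release 44 and equal to hg38.

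RNY1: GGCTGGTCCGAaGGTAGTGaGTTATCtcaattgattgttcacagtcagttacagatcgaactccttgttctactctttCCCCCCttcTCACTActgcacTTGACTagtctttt

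RNY4: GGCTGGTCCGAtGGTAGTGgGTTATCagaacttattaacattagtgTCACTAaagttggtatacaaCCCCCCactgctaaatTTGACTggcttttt

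RNY1 lies at chr7:148987136-148987248 on the minus strand and RNY4 at chr7:148963315-148963410 on the plus strand, each a single-exon gene within 23.9 kb. RNY1 and RNY4 were 63.7% identical, with a longest shared run of 11 bases. The 4 copies of RNY4 with the most counts were far closer to their parent: RNY4P7 was 92.7% identical to RNY4, RNY4P10 91.7%, RNY4P25 90.7% and RNY4P18 87.5%. Counts of reads that map to several rows had been divided among them, and 93.5% of the non-zero member values were not whole numbers. Shares are therefore given for genes and their copies together, as the RNY1, RNY3 and RNY4 stems, and levels are those of single rows unless a sum is named. No row carried the name RNY5, the fourth human Y RNA.

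The vault RNA genes are shown because VTRNA1 and VTRNA2 differed over the 4 groups under all settings. Capitals mark runs of at least 8 bases found in all 3 VTRNA1 genes, or for VTRNA2-1 in all 4 genes, among them the internal promoter sequences of RNA polymerase III. Adjacent runs are joined, so the first stretch of capitals in VTRNA2-1 is not found as a whole in the VTRNA1 genes.

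VTRNA1-1: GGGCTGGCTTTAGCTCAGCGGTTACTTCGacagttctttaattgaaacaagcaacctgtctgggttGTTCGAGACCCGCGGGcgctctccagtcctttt

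VTRNA1-2: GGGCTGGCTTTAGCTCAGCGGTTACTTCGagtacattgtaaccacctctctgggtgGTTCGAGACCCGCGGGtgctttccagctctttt

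VTRNA1-3: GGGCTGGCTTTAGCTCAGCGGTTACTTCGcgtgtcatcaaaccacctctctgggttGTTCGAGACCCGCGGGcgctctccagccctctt

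VTRNA2-1: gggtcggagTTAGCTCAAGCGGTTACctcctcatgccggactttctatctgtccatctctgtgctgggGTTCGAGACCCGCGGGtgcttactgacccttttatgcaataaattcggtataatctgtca

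The table shortens names at the hyphen, so its row VTRNA1 pools VTRNA1-1, VTRNA1-2 and VTRNA1-3, which lie together at chr5:140711275-140726246. VTRNA2-1 lies apart at chr5:136080470-136080597 on the minus strand. The VTRNA1 genes were 79.8% to 86.5% identical to each other and 50% to 53.9% identical to VTRNA2-1.

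The members held most gencode counts in every group. Their share was 79.4% ± 6.46 (SD, n = 3) in hiPSC-EV, 67.6% ± 1.68 for CPC-EV, 72.8% ± 5.29 for the CMi-EV libraries and 66.4% ± 8.20 for CMm-EV. Measured against the counts of all 5 RNA classes with a table (gencode, miRNA, tRNA, piRNA and circular RNA), the share was 17.5%, 16.04%, 11.0% and 4.27% in the same order. The CMm-EV libraries lay between 3.14% and 5.88% by that measure, below every library of the other groups, whose lowest was 8.16% for CMi-EV. Gencode counts as a whole were 4.57% to 10.3% of the 5 classes in CMm-EV and 20.3% to 24.4% in hiPSC-EV.

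Y RNA made up 92.5% of all member counts. A single Rfam row for the Y RNA family, RF00019, held 40.9% of member counts, the RNY4 stem 31.6%, the RNY1 stem 17.9% and the RNY3 stem 2.14%. Y RNA was 74.5% ± 4.74 (SD, n = 3) of gencode counts in hiPSC-EV, 64.5% ± 2.69 for CPC-EV, 66.8% ± 5.23 for the CMi-EV libraries and 55.8% ± 5.72 for CMm-EV. The snRNA share was 3.66% ± 2.38, 2.35% ± 0.960, 5.25% ± 2.37 and 9.70% ± 8.46, and its groups overlapped except for CPC-EV and CMm-EV. Vault RNA lay between 0.693% and 1.65% in hiPSC-EV and between 0.152% and 0.430% in all other libraries. 7SL was 0.163% ± 0.0479 in hiPSC-EV, whose 3 libraries lay below each library of the later groups, and 0.488% ± 0.234 for CMm-EV. As a ratio of group means, 7SK had the widest range of the families given here, from 0.00588% ± 0.00564 in hiPSC-EV to 0.187% ± 0.0347 for CMm-EV.

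**Figure D1:**
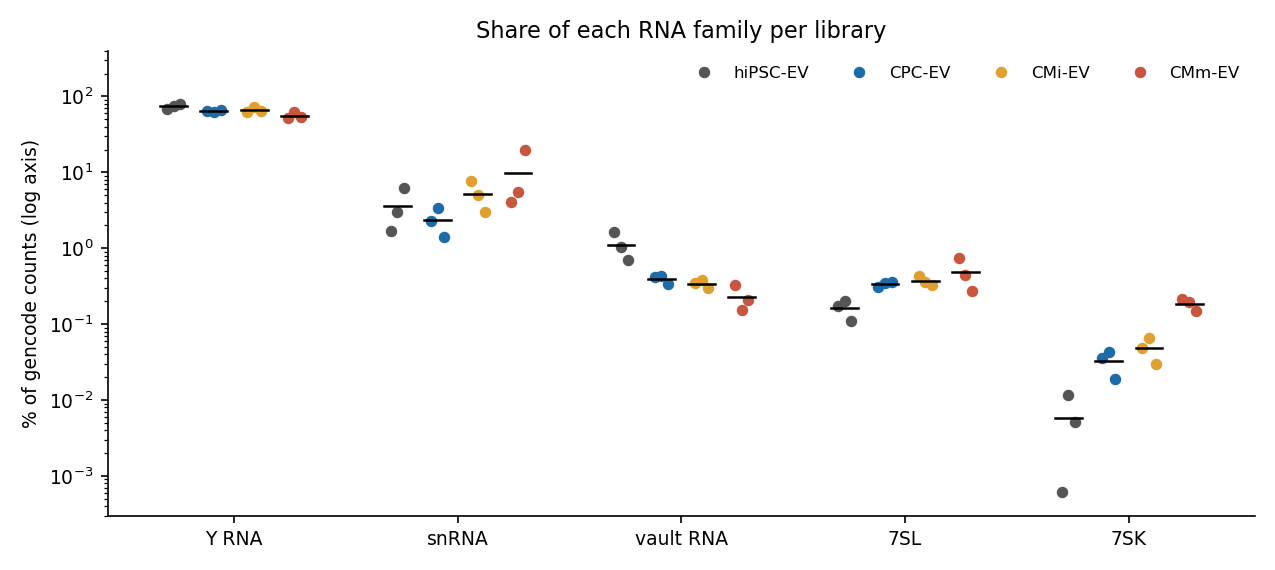
Share of gencode counts (log axis, %) of Y RNA, snRNA, vault RNA, 7SL and 7SK in each of the 12 libraries, with points for libraries and a bar for the mean of 3. Vault RNA is highest in hiPSC-EV, and all CMm-EV libraries lie above all others for 7SK.

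The balance between the Y RNAs shifted from stage to stage with little spread between replicates. These shares are of the counts of named Y RNA rows, so they do not depend on the scaling of the libraries. The RNY1 stem was 39.8%, 36.2% and 31.5% of these counts in the hiPSC-EV libraries, 43.1%, 46.1% and 47.8% for CPC-EV, 20.5%, 21.6% and 22.045% for the CMi-EV libraries, and 19.7%, 19.6% and 18.7% for CMm-EV. No 2 groups overlapped, and the step from CPC-EV to CMi-EV, from 45.7% ± 2.34 to 21.4% ± 0.815 (SD, n = 3), was the widest of the 3 steps along differentiation.

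RNY1 and RNY4 together made up nearly all of these counts, so the share of the RNY4 stem follows from that of RNY1 and is no separate result. It was 58.4%, 62.1% and 67.1% in hiPSC-EV, 51.2%, 48.2% and 44.7% for CPC-EV, 72.01%, 71.4% and 71.9% for the CMi-EV libraries, and 74.8%, 74.3% and 75.9% for CMm-EV. The RNY3 stem was 1.82%, 1.71% and 1.44% in hiPSC-EV against 5.71%, 5.70% and 7.504% for CPC-EV, 7.52%, 7.01% and 6.05% for the CMi-EV libraries, and 5.53%, 6.14% and 5.36% for CMm-EV. Its hiPSC-EV libraries stood below all others, and the other 3 groups overlapped. With 3 libraries in a group an exact test of 1 pair cannot go below 0.10, so no p is given for these shares.

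**Figure D2:**
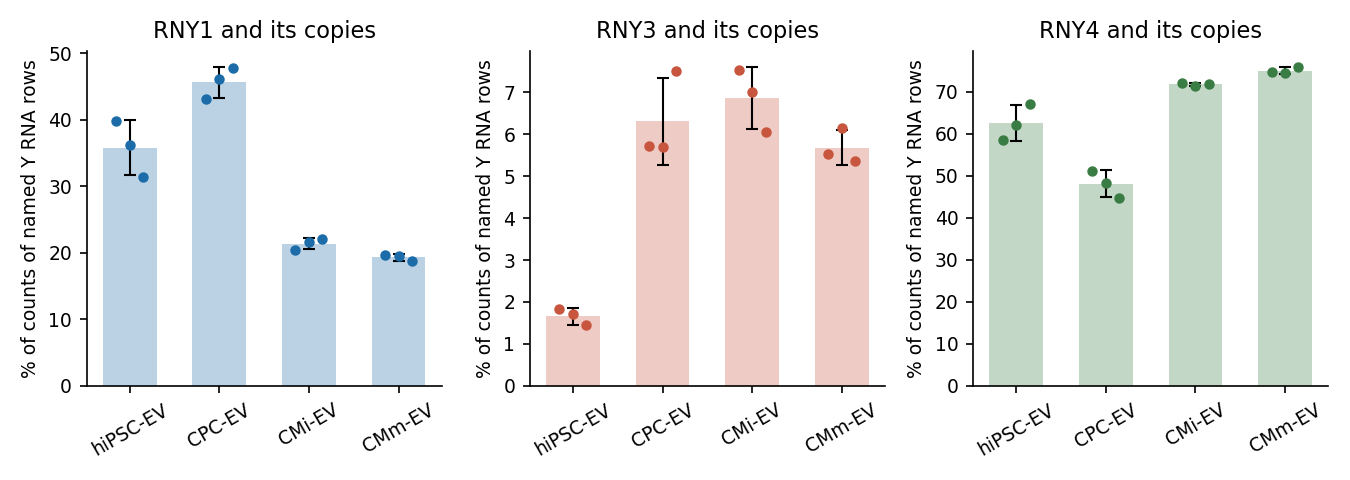
RNY1, RNY3 and RNY4, each with its copies, as % of the counts of named Y RNA rows; bars are means, error bars SD and points the 3 libraries of each EV group. The RNY1 panel drops from 45.7% for CPC-EV to 21.4% for the CMi-EV libraries, and the RNY3 panel is lowest in hiPSC-EV at 1.66%.

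The parent rows alone gave the same order. Per base of gene length, the ratio of RNY1 to RNY4 counts was 1.36 ± 0.213 (SD, n = 3) in hiPSC-EV, 2.27 ± 0.273 for CPC-EV, 0.684 ± 0.0380 for the CMi-EV libraries and 0.564 ± 0.0145 for CMm-EV. The RNY1 row thus exceeded the RNY4 row per length in all 6 libraries of the first 2 stages and was under it in all 6 libraries of the cardiomyocyte stages. With the copies summed and divided by the parent's length, the RNY1 stem was under the RNY4 stem in all 12 libraries, at ratios of 0.491 ± 0.0902, 0.812 ± 0.0953, 0.253 ± 0.0102 and 0.219 ± 0.00822, in the same order of groups. The ratio of RNY3 to RNY1 per length was 0.0462 ± 0.00146 in hiPSC-EV, 0.140 ± 0.0183 for CPC-EV, 0.333 ± 0.0450 for the CMi-EV libraries and 0.301 ± 0.0200 for CMm-EV. The ratio of RNY3 to RNY4 was 0.0630 ± 0.00924, 0.320 ± 0.0768, 0.227 ± 0.0197 and 0.170 ± 0.0154. Including RF00019 among the Y RNA counts left the RNY1 stem at 21.1% ± 2.77, 24.4% ± 0.967, 11.4% ± 0.804 and 10.6% ± 0.259 of them. With that denominator the hiPSC-EV and CPC-EV libraries overlapped, as did CMi-EV and CMm-EV, and the gap between the first 2 and the last 2 stages was kept. The RNY4 stem was then 36.8% ± 2.07, 25.8% ± 2.42, 38.2% ± 1.32 and 41.3% ± 0.844, with hiPSC-EV and CMi-EV overlapping.

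The copies of RNY4 differed in how closely they followed their parent. RNY4P7 and RNY4P10 stood at 0.587 to 0.712 of the RNY4 count in every library, and RNY4P18 and RNY4P25 at 0.105 to 0.240. RF00019 held 5.18 ± 0.711 (SD, n = 3) counts per RNY4 count in CPC-EV and 2.84 ± 0.123 to 3.37 ± 0.215 in the other groups. The RNY1 copy RNY1P13 did not keep a fixed ratio to RNY1: it was 0.00880 ± 0.00375 in hiPSC-EV, 0.00548 ± 0.000433 for CPC-EV, 0.00359 ± 0.000679 for the CMi-EV libraries and 0.00163 ± 0.000324 for CMm-EV.

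Differences in level were tested over all gencode rows with edgeR's quasi-likelihood test and Benjamini-Hochberg adjustment (FDR), on rows with at least 5 CPM in all 3 libraries of at least 1 group. Over the 4 groups together, 123 members passed the filter and 25 had an FDR of at most 0.05, beside 32.9% of all 3381 rows tested. The 25 were 5 of 24 7SK rows with 20 rows of other families, and 5 of them passed under all 21 alternative settings. Those 5 were RNY1, its copy RNY1P13, VTRNA1, VTRNA2 and RF00006. RF00006 is the Rfam row of the vault family and holds the same values as VTRNA2 in all libraries, so the 5 rows are 4 measurements. RNY1 had an FDR of 0.0064 (at most 0.036 in the alternatives), RNY1P13 of 0.0028 (at most 0.032), VTRNA1 of 0.0077 (at most 0.036) and VTRNA2 of 0.011 (at most 0.037). RNY4 also passed, with an FDR of 0.025, in the main setting and 16 of 21 alternatives, whereas RNY3 had an FDR of 0.21.

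Pairs of groups were called at an FDR of at most 0.05 with a log2 fold change of at least 1 either way. In CPC-EV against hiPSC-EV, 12 of 92 members tested were called, all lower, beside 11% of all rows (4.45% higher and 6.58% lower); scaled by library size only, 4 were called higher and 2 lower, and with TMM over 5 RNA classes 2 higher and 7 lower. In CMi-EV against CPC-EV 5 of 100 were called, 2 higher and 3 lower, beside 30.5% of all rows (3.04% higher and 27.5% lower). With these scalings the split was 1 higher and 8 lower, and 0 higher and 9 lower. In CMm-EV against CMi-EV 1 of 105 was called, higher, beside 12.2% (3.41% higher and 8.8% lower). In CMm-EV against hiPSC-EV 47 of 112 were called, 32 higher and 15 lower, beside 50.8% (7.29% higher and 43.5% lower), and with TMM over 5 RNA classes 26 were higher and 24 lower. More were lower than higher there with dispersions shared over all libraries (10 higher and 17 lower), without a filter (0 and 6), without hiPSC-EV replicate 1 (17 and 20) and without hiPSC-EV replicate 3 (12 and 14). The median log2 fold change of the members tested was -0.34, 0.51, 0.00 and 0.52 in the 4 comparisons, beside 0.11, -1.44, -0.21 and -2.18 over all rows tested. The first of these medians turned sign with library size only, from -0.34 to 0.82. It also turned with TMM over 5 RNA classes (0.17), without a filter (0.01) and without hiPSC-EV replicate 3 (0.05). The third lay near 0 and took either sign. The fourth turned to -0.71 with the copies of a species summed and to -0.56 without a filter. With rows admitted on their mean CPM it was -0.02.

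These pairwise calls depend on how rows were admitted. In CMm-EV against hiPSC-EV, 27 of the 32 higher members passed the filter only through CMm-EV and 8 of the 15 lower members only through hiPSC-EV, whereas 11 of the 12 lower in CPC-EV passed in both groups. A row that passed only through the group where it is high had to differ, so its FDR is a description and no support; of the rows named in the following paragraphs this holds for VTRNA3, RNU6ATAC, RNU7, RNU5D, RNU5E, RNU5F, RF00024, RN7SL8P, RNY4P13, RN7SK and its copies, and for RNU11 in CMm-EV against hiPSC-EV. With rows admitted instead on their mean CPM over all compared libraries, edgeR called 0 members in CPC-EV against hiPSC-EV (22 at an unadjusted p of 0.05), 0 for CMm-EV against CMi-EV (1 unadjusted) and 0 for CMm-EV against hiPSC-EV (28 unadjusted). The same filter called 1 member, RNY1, in CMi-EV against CPC-EV, and 18 over the 4 groups, of which 15 were among the 25. With this filter 0%, 0.482%, 0.0928% and 0% of all rows were called in the 4 comparisons and 3.65% over the 4 groups, so the low counts are not particular to the members. Every pairwise call of a single member row named in the paragraphs that follow comes from the filter by group and was lost with the mean filter. Sums over the copies of a species were run with the filter by group only. DESeq2 on the rows of the group filter called 31, 21, 6 and 61 members in the 4 comparisons, beside 22.3%, 42.6%, 20.2% and 57.5% of all rows.

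**Figure D3:**
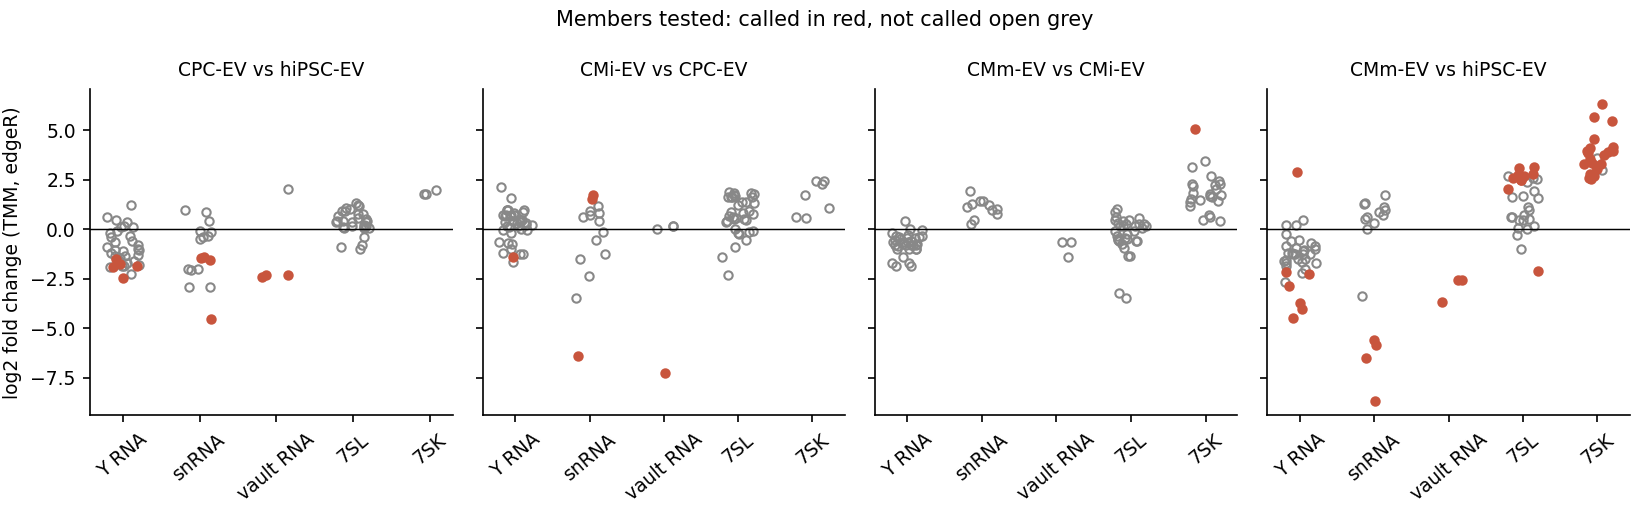
Log2 fold change of each tested member by family in the 4 comparisons, with members called by the group filter filled in red. In CMm-EV against hiPSC-EV the 7SK rows lie above 0 and the vault RNA rows below it, and CPC-EV against hiPSC-EV shows no called member above 0.

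RNY1 had 156870, 240990 and 358331 TMM-scaled CPM in the hiPSC-EV libraries, 130171, 131467 and 132403 for CPC-EV, 56928, 95569 and 66182 for the CMi-EV libraries, and 30774, 49994 and 63367 for CMm-EV. TMM scaling divides by an effective library size based on the bulk of rows and was applied over all 12 libraries for these levels. The lowest hiPSC-EV library lay above every CPC-EV library and the lowest CPC-EV library above every cardiomyocyte library. Without TMM scaling the hiPSC-EV and CPC-EV libraries overlapped, and CPC-EV stayed above every cardiomyocyte library. From hiPSC-EV to CMm-EV RNY1 fell by 2.25 ± 0.59 on the log2 scale (SE; edgeR FDR 0.013), with values from -2.99 to -1.38 in the alternatives. The RNY1 stem summed over its rows gave -2.25 ± 0.57. In CPC-EV against hiPSC-EV the log2 fold change of RNY1 was -0.98 ± 0.40 (FDR 0.18), and 0.02 with library size only. In CMi-EV against CPC-EV its log2 fold change was -0.76 ± 0.20 with an FDR of 0.025, short of the fold threshold.

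RNY4 had 85209, 147509 and 267169 CPM in hiPSC-EV, 55478, 49071 and 44305 for CPC-EV, 73561, 121529 and 77246 for the CMi-EV libraries, and 46721, 73216 and 97510 for CMm-EV. It was lowest in CPC-EV, whose libraries lay below all of hiPSC-EV and CMi-EV and overlapped CMm-EV. RNY4 fell from hiPSC-EV to CPC-EV by 1.77 ± 0.45 on the log2 scale (edgeR FDR 0.048), and its copies RNY4P7 and RNY4P10 were called lower with it. With 1 library left out, these 3 calls were kept only when it was hiPSC-EV replicate 1. With library size only the log2 fold change of RNY4 was -0.72, and its call was kept in 7 of 16 alternatives. In CMi-EV against CPC-EV its log2 fold change was 0.96 ± 0.22 (FDR 0.022), opposite in sign to that of RNY1 and just short of the fold threshold. Under every alternative run, RNY1 kept a negative value (-1.27 to -0.47) and RNY4 a positive one (0.46 to 1.25) in that comparison.

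RNY3 had 6349, 10387 and 14918 CPM in hiPSC-EV, 15676, 14926 and 19201 for CPC-EV, 19366, 28806 and 17141 for the CMi-EV libraries, and 7919, 14604 and 16877 for CMm-EV. It was called in none of the 4 comparisons, with log2 fold changes from -0.78 to 0.62. In CPC-EV against hiPSC-EV its 0.62 became 1.62 with library size only and 1.07 with TMM over 5 RNA classes, and 2 of 16 alternatives called it. In CMm-EV against hiPSC-EV its value ran from -0.28 to 1.33 in the alternatives.

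Among the RNY1 rows tested in CMm-EV against hiPSC-EV, 6 of 8 were called lower, whereas 0 of 7 RNY3 rows were called, and 1 of 21 RNY4 rows, RNY4P13, was called higher. These counts stand beside 43.5% of all rows called lower and 7.29% called higher in that comparison, 2 of the 6 RNY1 rows passed the filter only through hiPSC-EV, and the difference between the stems was not tested. RNY1P13 showed the steepest gradient of the Y RNA rows named here. It had 2050, 1747 and 2174 CPM in hiPSC-EV, 761, 736 and 662 for CPC-EV, 223, 268 and 267 for the CMi-EV libraries, and 50.1, 66.4 and 127 for CMm-EV. Its 4 groups did not overlap at these TMM-scaled levels, but without TMM scaling hiPSC-EV and CPC-EV overlapped. From hiPSC-EV to CMm-EV it fell by 4.45 ± 0.70 on the log2 scale (edgeR FDR 0.0087). RNY1P13 lies at chr1:114727720-114727824. This call was kept with each library left out in turn. The call of RNY1P13 for CPC-EV against hiPSC-EV was kept only without hiPSC-EV replicate 1, and that for CMi-EV against CPC-EV only without CMi-EV replicate 2 or 3.

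The vault RNAs were highest in hiPSC-EV and lowest in CMm-EV. VTRNA1 had 4147, 8584 and 12956 CPM in hiPSC-EV, 1797, 1927 and 1270 for CPC-EV, 1149, 2170 and 1411 for the CMi-EV libraries, and 493, 292 and 1064 for CMm-EV. Its hiPSC-EV libraries lay above all others, CPC-EV and CMi-EV overlapped, and CMm-EV lay below both. VTRNA1 fell by 2.39 ± 0.44 on the log2 scale between hiPSC-EV and CPC-EV (edgeR FDR 0.021) and by 3.68 ± 0.76 from hiPSC-EV to CMm-EV (FDR 0.0087). Between CPC-EV and CMi-EV its log2 fold change was 0.02 ± 0.37.

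VTRNA2, a shortened name that fits VTRNA2-1 and the pseudogene VTRNA2-2P, had 5953, 3609 and 2349 CPM in hiPSC-EV, 912, 870 and 733 for CPC-EV, 928, 1154 and 565 for the CMi-EV libraries, and 643, 436 and 683 for CMm-EV. At these TMM-scaled levels the hiPSC-EV libraries stood above all the others, CMm-EV lay below CPC-EV, and CMi-EV overlapped both. Without TMM scaling hiPSC-EV replicate 3 fell among the libraries of the other groups, and CMm-EV overlapped CPC-EV. VTRNA2 fell by 2.32 ± 0.43 between hiPSC-EV and CPC-EV (edgeR FDR 0.021) and by 2.55 ± 0.66 from hiPSC-EV to CMm-EV (FDR 0.013). For CPC-EV against hiPSC-EV its edgeR FDR reached 0.079 among the other scalings, and the call was kept in 10 of 16 alternatives. The calls of VTRNA1 and VTRNA2 for CPC-EV were lost without hiPSC-EV replicate 3 or without CPC-EV replicate 3, where no row of any kind was called. VTRNA1 in that comparison, and VTRNA2 from hiPSC-EV to CMm-EV, were also lost without hiPSC-EV replicate 2.

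The row VTRNA3, which matches the pseudogene VTRNA3-1P, went another way. It had 20.7, 30.1 and 24.6 CPM in CPC-EV, 16.04 in 1 hiPSC-EV library, and no count in the other 2 hiPSC-EV libraries or in any cardiomyocyte library. It was at least 9.73-fold lower for CMi-EV than for CPC-EV, taking 3 counts over the group as the floor (edgeR FDR 0.022, a description). Here and for the other rows at 0, the bound is the lower of those from unscaled and TMM-scaled CPM.

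**Figure D4:**
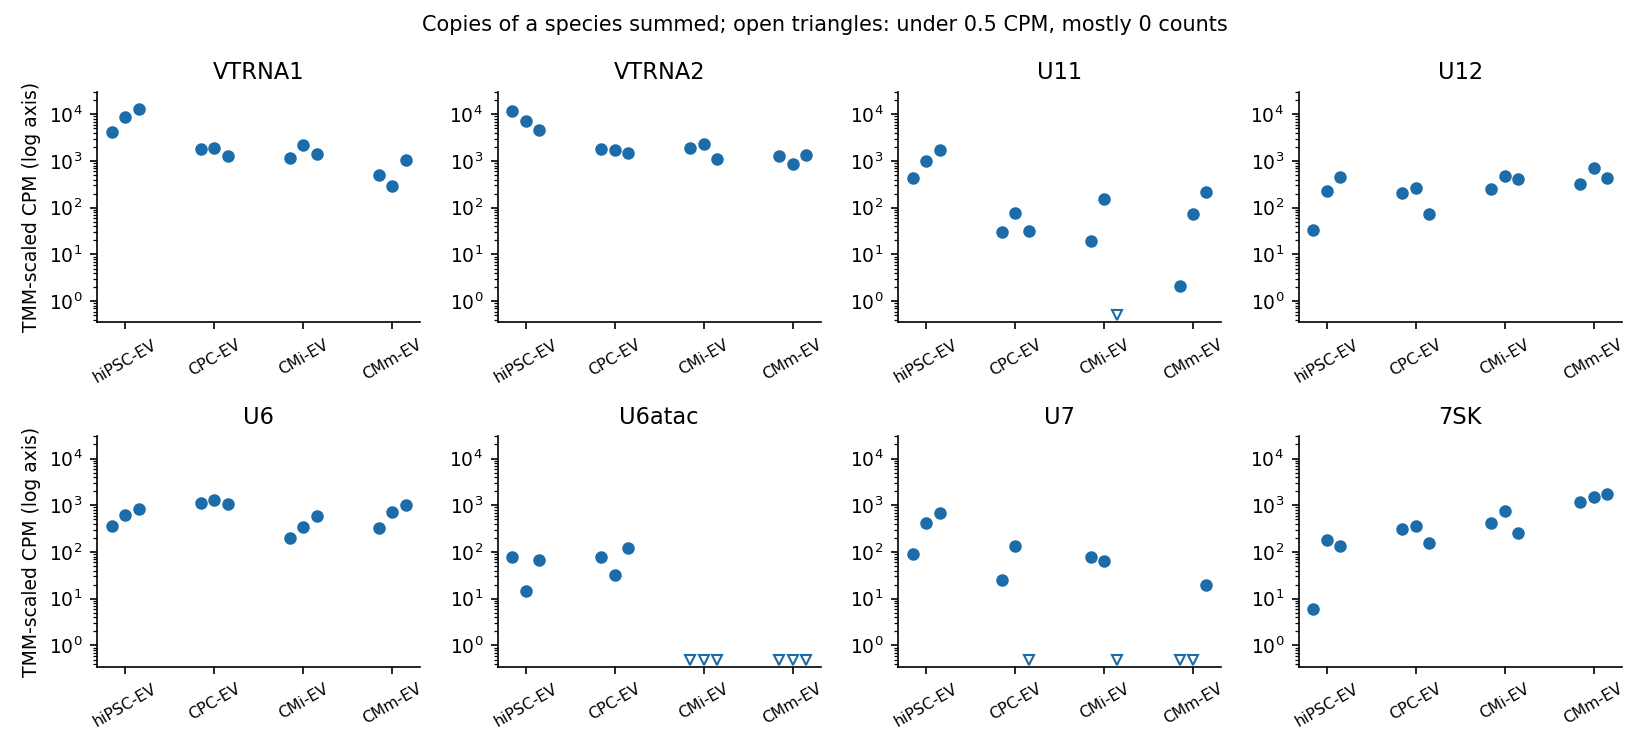
TMM-scaled CPM (log axis) of VTRNA1, VTRNA2, U11, U12, U6, U6atac, U7 and 7SK in each library, with the copies of a species summed, VTRNA2 with its identical Rfam row RF00006, and open triangles for libraries under 0.5 CPM. VTRNA1, VTRNA2 and U11 are highest in hiPSC-EV, 7SK is highest in CMm-EV, and U6atac has no count in CMi-EV and CMm-EV.

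Among the snRNAs, U11 of the minor spliceosome differed most between hiPSC-EV and CPC-EV. Its sequence is shown with the letters AATTTTTTG in capitals, a stretch of the Sm-site type that the search, on the RNA strand only, found in 19 of 1901 annotated snRNA transcripts, RNU11 included (0.999%); RNU11 lies at chr1:28648600-28648733 on the plus strand.

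RNU11: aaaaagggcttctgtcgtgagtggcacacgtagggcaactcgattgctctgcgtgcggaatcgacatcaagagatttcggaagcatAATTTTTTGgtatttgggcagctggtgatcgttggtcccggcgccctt

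RNU11 had 425, 997 and 1725 CPM in hiPSC-EV, 30.6, 77.2 and 31.3 for CPC-EV, 19.5, 156 and 0 for the CMi-EV libraries, and 0, 71.1 and 214 for CMm-EV. The hiPSC-EV libraries lay above all others, which overlapped among themselves. RNU11 fell by 4.52 ± 0.59 on the log2 scale from hiPSC-EV to CPC-EV (edgeR FDR 0.020), the largest drop among the 12 called members, and this call was lost without hiPSC-EV replicate 3 or CPC-EV replicate 3. Against CMm-EV the log2 fold change was -3.37 ± 1.31 with an FDR of 0.079, a description since RNU11 passed there only through hiPSC-EV. RNU11 was 1.94% ± 0.784 (SD, n = 3) of the snRNA counts in hiPSC-EV and 0.0916% to 0.231% on average in the later groups.

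U12, the partner of U11 in recognising minor introns, did not share that pattern. RNU12 had 34.9, 230 and 450 CPM in hiPSC-EV, 212, 261 and 73.7 for CPC-EV, 250, 468 and 423 for the CMi-EV libraries, and 326, 692 and 429 for CMm-EV. The groups overlapped except for CPC-EV and CMm-EV, and no comparison of RNU12 was called, with log2 fold changes from -0.40 to 1.16. The difference between U11 and U12 was not tested.

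U6atac had counts in the first 2 stages only. Its 13 rows share reads and are summed here: they had 76.3, 14.8 and 68.5 CPM in hiPSC-EV, 79.0, 32.5 and 119 for CPC-EV, and no count in the 6 cardiomyocyte libraries. Over the group, U6atac was at least 25.5-fold lower for CMi-EV than for CPC-EV and at least 6.78-fold lower in CMm-EV than in hiPSC-EV, with 3 counts as the floor. The parent row RNU6ATAC was at 1.85 to 25.7 CPM in the first 6 libraries. In a single cardiomyocyte library 3 counts are 6.00 to 22.8 CPM, so part of this range could not be seen there, and the call of this row for CMi-EV against CPC-EV was lost without CMi-EV replicate 1. U4atac was too sparse to describe, with counts in 5 of the 12 libraries for RNU4ATAC.

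U6 was highest in CPC-EV. RNU6, a row that pools many copies, had 346, 615 and 796 CPM in hiPSC-EV, 1060, 1259 and 1042 for CPC-EV, 191, 324 and 584 for the CMi-EV libraries, and 317, 711 and 952 for CMm-EV. The CPC-EV libraries lay above all the others, but no comparison was called: the log2 fold change was 0.90 ± 0.39 against hiPSC-EV (FDR 0.21) and -1.51 ± 0.49 from CPC-EV to CMi-EV (FDR 0.055).

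U7 was lowest in CMm-EV. RNU7 had 88.8, 428 and 669 CPM in hiPSC-EV, 25.1, 133 and 0 for CPC-EV, 78.2, 62.9 and 0 for the CMi-EV libraries, and 0, 0 and 19.8 for CMm-EV. Its log2 fold change from hiPSC-EV to CMm-EV was -5.84 ± 1.495 (edgeR FDR 0.016, a description since RNU7 passed the filter only through hiPSC-EV). In CMm-EV 3 counts in a single library are 9.31 to 22.8 CPM, so its absence there was not shown.

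U1 and U2 of the major spliceosome had log2 fold changes of the same sign in each of the 4 comparisons; RNU1 was called in 1 of them and RNU2 in another. Without CMm-EV replicate 3 the sign of RNU2 turned in both comparisons of CMm-EV, to -0.90 against CMi-EV and -1.26 against hiPSC-EV. RNU1 had 2462, 3218 and 2586 CPM in hiPSC-EV, 1024, 1310 and 921 for CPC-EV, 2327, 1983 and 1153 for the CMi-EV libraries, and 2778, 3362 and 6032 for CMm-EV. It fell by 1.40 ± 0.33 between hiPSC-EV and CPC-EV (edgeR FDR 0.036), and the call was kept in 4 of 16 alternatives, among those with 1 library left out only in that without hiPSC-EV replicate 1. RNU2 had 4503, 15690 and 61591 CPM in hiPSC-EV, 6593, 9670 and 3309 for CPC-EV, 27096, 23960 and 9421 for the CMi-EV libraries, and 7727, 16715 and 127178 for CMm-EV. The spread within groups was wide, and 2 libraries, hiPSC-EV replicate 3 and CMm-EV replicate 3, were far above their group. U2 was 93.8% and 94.3% of the snRNA counts in these 2 libraries. RNU2 rose by 1.72 ± 0.47 on the log2 scale from CPC-EV to CMi-EV (edgeR FDR 0.031), and this call was lost without CMi-EV replicate 1 or CMi-EV replicate 2. Among the other scalings its edgeR FDR reached 0.13, and the call was kept in 10 of 16 alternatives.

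The mean levels of RNU5D, RNU5E and RNU5F were highest in hiPSC-EV, and those of RNU5A and RNU5B in CMm-EV. Summed over its rows, U5 had a log2 fold change of -0.25 ± 1.03 from hiPSC-EV to CMm-EV (edgeR FDR 0.86). RNU5E had 22.2, 397 and 663 CPM in hiPSC-EV, 95.0, 119 and 59.2 for CPC-EV, 35.2, 14.0 and 0 for the CMi-EV libraries, and 0, 14.2 and 3.97 for CMm-EV. Its log2 fold change from hiPSC-EV to CMm-EV was -5.60 ± 1.45 (edgeR FDR 0.016, a description since RNU5D, RNU5E and RNU5F passed only through hiPSC-EV). RNU5F had 255 counts in hiPSC-EV and none in CMm-EV, at least 20.8-fold lower, but most of its hiPSC-EV level came from replicate 3, at 301 CPM beside 12.7 and 48.2. RNU5D was at least 4.33-fold lower in CMm-EV, and most of its hiPSC-EV level also came from replicate 3, at 54.8 CPM beside 6.35 and 18.5. Its CPC-EV libraries had 10.9, 37.9 and 15.6 CPM. RNU5A and RNU5B were not called in any comparison, nor was RNU4, at 571 to 668 CPM in CMm-EV and 82.3 to 451 CPM in the other libraries.

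Relative to gencode counts, 7SK levels were highest in CMm-EV. RN7SK, at chr6:52995621-52995948, had 0, 37.1 and 20.04 CPM in hiPSC-EV, 60.0, 88.9 and 61.4 for CPC-EV, 76.2, 170 and 51.0 for the CMi-EV libraries, and 209, 277 and 349 for CMm-EV. Its CMm-EV libraries lay above all the others and its hiPSC-EV libraries below all the others. The log2 fold change of RN7SK from hiPSC-EV to CMm-EV was 3.93 ± 1.198 (edgeR FDR 0.033, a description since RN7SK passed the filter only through CMm-EV), a call lost without hiPSC-EV replicate 3 or CMm-EV replicate 3 and with values from 3.19 to 4.95 in the alternatives.

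In that comparison 22 of 24 tested 7SK rows were called higher, beside 7.29% of all rows called higher, with a median log2 fold change of 3.67. All 24 had passed the filter through CMm-EV, and 19 other 7SK rows were not tested, so the count is no support of its own. Summed over its 43 rows, 7SK had 5.95, 183 and 133 CPM in hiPSC-EV, 316, 364 and 157 for CPC-EV, 421, 773 and 257 for the CMi-EV libraries, and 1180, 1504 and 1725 for CMm-EV. The sum rose by 3.94 ± 1.28 on the log2 scale from hiPSC-EV to CMm-EV (edgeR FDR 0.046), and its FDR over the 4 groups was 0.051. In counts, the sum was 2, 99 and 99 in hiPSC-EV and 283, 635 and 435 for CMm-EV; the libraries held 307432, 832603 and 1908539 gencode counts in hiPSC-EV and 131423, 322334 and 293752 for CMm-EV. RN7SKP185 was at least 13.1-fold higher in CMm-EV than in hiPSC-EV, RN7SKP187 at least 8.51-fold and RN7SKP72 at least 7.20-fold, on 20, 13 and 11 counts. RN7SKP72 was also the 1 call in CMm-EV against CMi-EV, at least 4.59-fold higher, and this call was kept only without CMi-EV replicate 3 when 1 library was left out.

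7SL was not called as a family in any comparison. RN7SL1, at chr14:49586580-49586878, had 273 to 393 CPM in hiPSC-EV, 367 to 393 for CPC-EV, 307 to 380 for the CMi-EV libraries and 202 to 263 for CMm-EV. RN7SL2, at chr14:49862550-49862849 on the minus strand, had 692 to 1446, 811 to 1022, 659 to 1720 and 1127 to 1484 CPM. Neither was called in any comparison, with log2 fold changes between -0.57 and 0.49 by TMM. With library size only, the values in CMm-EV against hiPSC-EV were 0.57 for RN7SL1 and 1.46 for RN7SL2, and the sign of RN7SL1 turned. Of the 31 7SL rows tested in CMm-EV against hiPSC-EV, 9 were called higher and 1, RN7SL8P, lower, beside 7.29% and 43.5% of all rows. Of the 9, 4 passed the filter only through CMm-EV. The summed family had a log2 fold change of 0.60 ± 0.62 (FDR 0.47). The telomerase RNA row, RF00024, had 45 counts in hiPSC-EV and none in CMm-EV, at least 3.68-fold lower.

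The mRNAs of proteins that bind these RNAs were sparse. Of 59 listed genes 56 had a row, and 16, 13, 3 and 14 were tested in the 4 comparisons. In CPC-EV against hiPSC-EV 1 was called higher, SNRPD2 of the Sm ring (log2 fold change 3.00, FDR 0.020), and none lower, beside 4.45% and 6.58% of all rows. In CMi-EV against CPC-EV 4 were called lower, beside 27.5% of all rows, among them HEXIM1, the 7SK-bound inhibitor of P-TEFb, and SRP9 of the signal recognition particle. Of the 4, 3 passed the filter only through CPC-EV, HEXIM1 and SRP9 among them. In CMm-EV against hiPSC-EV 7 were called lower and none higher, beside 43.5% and 7.29% of all rows, among them YBX1, which binds Y RNA (log2 fold change -3.07, FDR 0.020), and TROVE2, which encodes Ro60 (-3.81). Of the 7, 6 passed only through hiPSC-EV, TROVE2 among them, and YBX1 passed in both groups. These counts stand beside the median log2 fold change of all rows of -2.18 in that comparison. In these small RNA libraries an mRNA is seen through its short fragments.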

How the data were processed

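EV were isolated from conditioned medium on a density gradient, and small RNA of 3 preparations per stage, from independent cultures, was sequenced. The authors ran the exceRpt small RNA pipeline on hg38; the gene annotation release is not given in the sources used here. The deposited tables hold estimated counts per row, in which the authors divided reads that map to several rows, and RPM values, which the authors scaled to library totals and from which only library totals were taken. TMM scaling and edgeR 3.24.0 are named in the submitters' notes.

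Here counts were rounded and each pair of groups was fitted on its 6 libraries with edgeR 4.0.16 (R 4.3.3; TMM, glmQLFit and glmQLFTest, two-sided), after a filter of 5 CPM in all 3 libraries of at least 1 group. FDR was adjusted over all rows tested. A second fit took all 12 libraries. On simulated data the filter by group gave more false calls than its FDR states. False calls were 26.2%, 76.1%, 16.7% and 100% of its calls in the 4 comparisons, in the order used above. For CMm-EV against hiPSC-EV it called 3 unchanged rows and 0 of 155 changed ones. A filter on the mean CPM, added after seeing the data, gave fewer false calls than the filter by group. They were 6.06% of its calls for CPC-EV against hiPSC-EV, and it made no call at all for CMm-EV against hiPSC-EV. Both filters missed most of the changed rows. Alternatives were DESeq2 1.42.0, other scalings, filters, dispersions, unrounded counts, summed copies, a replicate block and each library left out.

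The members and the lists of partner and marker genes were chosen with earlier results of these data known. Genes named are the parent genes, the highest member of each snRNA species, the 10 members with most counts and up to 5 called members per direction and comparison with the largest fold; any other was named after its values were seen. Coordinates and sequences are from GENCODE release 44 (hg38), which holds 171 of the member symbols. Libraries held 131423 to 1908539 gencode counts; floors of 3 counts cover counting error only. All columns matched a sample. The sequence of RNY3 is not reported here.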

Additional observations from a re-analysis of the deposited data

How the results depend on the processing

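Directions held in every alternative for the 32 called fold changes of the named members. Of the other 89 named fold changes, 11 had the opposite sign with library size only, 12 with TMM over all 5 RNA classes and 2 with median-of-ratios size factors. The counts of members called did not hold. For CPC-EV against hiPSC-EV (12 members) they were 6 with library size only (4 higher, 2 lower), 0 with filterByExpr, 31 with DESeq2, 6 with dispersions from all 12 libraries, 5 species with copies summed and 0 with the mean CPM filter. For CMi-EV against CPC-EV (5) they were 9 with library size only (1 higher, 8 lower), 9 with TMM over all 5 RNA classes (0 higher, 9 lower), 3 without a filter, 0 with filterByExpr, 21 with DESeq2 (14 higher, 7 lower), 2 with shared dispersions, 8 unrounded, 3 with copies summed and 1 with the mean filter. For CMm-EV against CMi-EV (1) they were 2 with library size only, TMM over 5 classes or unrounded counts, 6 with DESeq2, and 0 without a filter, with filterByExpr, with copies summed or with the mean filter. For CMm-EV against hiPSC-EV (47) they were 6 without a filter (0 higher, 6 lower), 12 with filterByExpr (6 higher, 6 lower), 27 with shared dispersions (10 higher, 17 lower), 7 with copies summed (1 higher, 6 lower) and 0 with the mean filter. Over the 4 groups (25) they were 6 with filterByExpr, 38 with DESeq2 and 8 with copies summed. Fewer units are tested when copies are summed; the other causes were not tested.

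Leaving out 1 library gave 0 to 26, 2 to 11, 0 to 1, 26 to 46 and 9 to 27 members in the same order. In CPC-EV against hiPSC-EV there were 26 without hiPSC-EV replicate 1, 3 without replicate 2, 0 without replicate 3, 4 without CPC-EV replicate 1 or 2, and 0 without CPC-EV replicate 3. In CMi-EV against CPC-EV there were 2 without CMi-EV replicate 1, 10 without CMi-EV replicate 2, 8 without CMi-EV replicate 3 or CPC-EV replicate 1, and 11 without CPC-EV replicate 2. In CMm-EV against CMi-EV only leaving out CMi-EV replicate 3 kept the call. In CMm-EV against hiPSC-EV there were 29 without hiPSC-EV replicate 2 and 26 without replicate 3; over the 4 groups, 12 and 9.

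Same-numbered libraries did not deviate together (correlations of -0.069 to 0.068 over 18 pairs). No pairing of the cultures by number was thus seen, which does not show that they were unpaired. A replicate block gave 0, 2, 0 and 26 members in the pairwise comparisons, the last 7 higher and 19 lower against 32 and 15 without the block.

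The members' share of gencode counts depends on the denominator: 17.5%, 16.04%, 11.0% and 4.27% of the 5 classes and 15.5%, 13.3%, 9.68% and 3.74% of the library totals from hiPSC-EV to CMm-EV. Without 1 library the share of gencode counts was 76.3% to 82.7%, 66.8% to 68.5%, 69.9% to 75.1% and 63.0% to 70.9%. Scaling by library size moved the median log2 fold change of all rows from 0.11 to 1.04 for CPC-EV against hiPSC-EV, where that of the members went from -0.34 to 0.82, and from -2.18 to -1.47 for CMm-EV against hiPSC-EV. CMm-EV replicate 1 had the fewest gencode counts, and a row with few counts there could not be told from 0.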
